A study of Homo sapiens with 6 samples.

Results

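The metallothionein genes MT2A, MT1X, MT1F and MT1A were examined in KLE cells, parental and LATS1/2-KO. They were taken from the deposited RNA-seq table by symbol and make up 4 of its 414 genes. KLE is an established human endometrial carcinoma cell line. The wild-type parental cells gave 3 libraries, and KLE cells with a double knockout of LATS1 and LATS2, kinases of the Hippo pathway, gave another 3. No treatment is named for either group. According to the methods, knockout cells were made with CRISPR-Cas9 plasmids and puromycin selection and were then grown from single cells, and the column names of the 3 knockout libraries carry the same guide pair. A difference between the groups and a difference between a clone and its parent line therefore cannot be told apart. No label says that replicates came from separate cultures, so p-values measure the spread between libraries, which may be technical.

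Metallothioneins are small cytosolic proteins whose many cysteines hold zinc, copper and cadmium. Their genes lie in a cluster and are induced by metals through the zinc-sensing factor MTF1, which binds metal response elements in their promoters, and several also respond to glucocorticoids and oxidants. MT2A is widely expressed, and the MT1 genes are closely related copies that are used in fewer cell types. In the annotation used here (GENCODE version 29, GRCh38), 16 metallothionein genes and pseudogenes lie on chromosome 16 between 56565049 and 56684196, a span of 119 kb, and 11 of them are protein-coding. The other 7 protein-coding genes of the cluster were not analysed here.

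**Figure D1:**
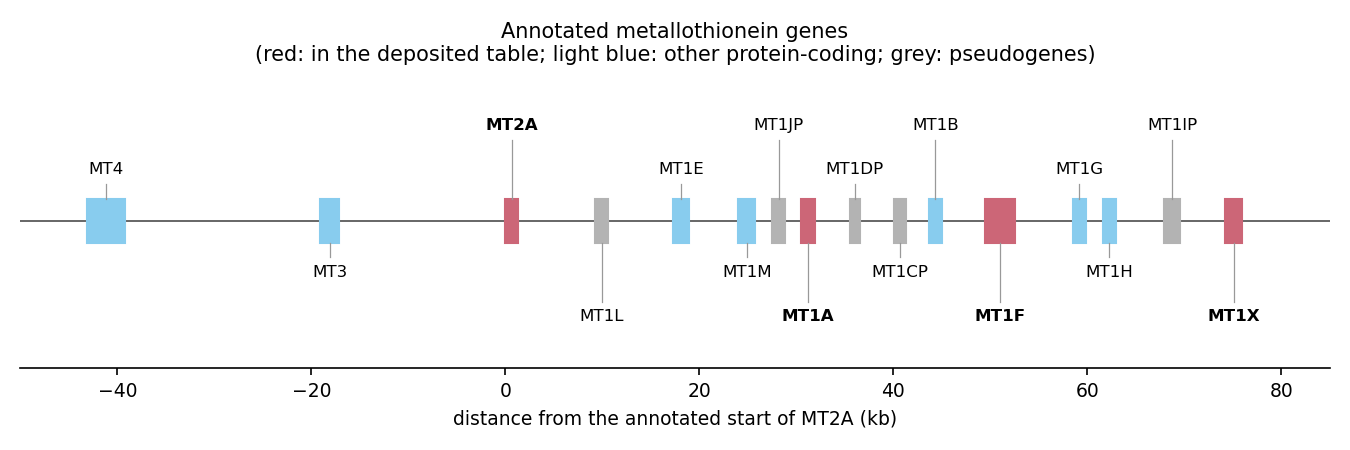
Metallothionein cluster of chromosome 16, drawn to scale as distance in kilobases from the MT2A start. The 4 listed genes, MT2A, MT1A, MT1F and MT1X, lie at 0, 30.5, 49.5 and 74.2 kb, among 16 annotated genes and pseudogenes.

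The 4 genes share the plus strand. MT2A (ENSG00000125148.7_4) extends from 56608199 to 56609497, MT1A (ENSG00000205362.11_4) from 56638666 to 56640087, MT1F (ENSG00000198417.7_4) from 56657694 to 56660698, and MT1X (ENSG00000187193.9_5) from 56682424 to 56684196. The coding sequences of MT2A, MT1X and MT1F are shown because the reads of such similar genes have to be told apart before their counts can be compared. They are given 5′ to 3′ from the start to the stop codon, from the transcript that GENCODE tags as principal for each gene, and capitals mark bases that differ from MT2A.
MT2A: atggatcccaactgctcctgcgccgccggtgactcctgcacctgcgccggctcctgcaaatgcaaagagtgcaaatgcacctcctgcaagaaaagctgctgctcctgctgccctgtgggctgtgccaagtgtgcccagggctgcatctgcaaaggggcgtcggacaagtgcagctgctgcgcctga
MT1X: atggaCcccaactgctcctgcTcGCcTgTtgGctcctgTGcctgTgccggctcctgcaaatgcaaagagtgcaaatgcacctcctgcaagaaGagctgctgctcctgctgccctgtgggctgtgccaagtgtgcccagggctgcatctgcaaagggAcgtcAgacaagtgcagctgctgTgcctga
MT1F: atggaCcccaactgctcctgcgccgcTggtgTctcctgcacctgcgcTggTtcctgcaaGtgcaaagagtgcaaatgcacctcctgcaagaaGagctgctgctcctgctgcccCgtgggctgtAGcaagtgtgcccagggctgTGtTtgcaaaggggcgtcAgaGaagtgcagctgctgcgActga
Each of these has 186 bases and 20 cysteine codons among 61 codons. MT1X differs from MT2A at 14 bases, and MT1F differs at 16. Identity between pairs of the 3 ranged from 88.7% for MT1F and MT1X to 92.5% for MT1X and MT2A. Over the longest protein-coding transcripts, each window of 100 bases in MT2A, MT1F and MT1A occurred in no other annotated gene. For MT1X this held for 49.2% of windows (216 of 439), and for 80.9% (284 of 351) over its principal transcript, which is shorter. The other MT1X windows all recurred in AC026461.1, a processed transcript that overlaps MT1X on the same strand. The MT1X count is uncertain in this respect, since how the authors counted reads of overlapping genes is not given in the sources used here.

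The RefSeq table gave promoters for MT2A and MT1X, and none was matched for MT1A and MT1F. They are shown because these 2 genes carried nearly all counts of the 4 listed metallothioneins. The 250 bases before each RefSeq start are given on the plus strand of GRCh38.p14, at chr16:56608334-56608583 for MT2A and chr16:56682220-56682469 for MT1X. Both RefSeq starts lie downstream of the GENCODE gene starts given above. The MT2A window therefore lies inside the GENCODE gene, and the MT1X window runs past the GENCODE start. Capitals mark matches on either strand to the core of the metal response element, searched as TGCACNC or TGCGCNC.
MT2A promoter: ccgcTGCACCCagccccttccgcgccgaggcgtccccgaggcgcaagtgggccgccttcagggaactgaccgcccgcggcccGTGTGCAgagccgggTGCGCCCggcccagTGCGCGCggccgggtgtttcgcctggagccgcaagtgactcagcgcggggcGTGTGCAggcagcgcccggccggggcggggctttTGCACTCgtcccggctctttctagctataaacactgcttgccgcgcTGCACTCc
MT1X promoter: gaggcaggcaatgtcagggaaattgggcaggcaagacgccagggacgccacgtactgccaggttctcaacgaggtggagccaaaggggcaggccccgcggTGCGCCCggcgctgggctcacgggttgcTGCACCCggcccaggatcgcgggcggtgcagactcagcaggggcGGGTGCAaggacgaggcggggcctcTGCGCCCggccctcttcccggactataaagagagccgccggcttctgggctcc
The MT2A window held 7 matches, 5 of them on the plus strand, and the MT1X window held 4, with 3 on the plus strand. Of 35116 RefSeq promoter windows of the same length, 24.8% held at least 1 match, 0.370% held 4 or more and 0.0313% held 7 or more. A match describes the letters of the window and says nothing of binding in these cells.

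The table holds genes that the authors called changed, so counts are known for these genes only, and LATS1 and LATS2 were not analysed here. Counts over the listed genes summed to between 3008692 and 4064052 in the parental libraries and to between 613161 (library 6) and 1862422 in the LATS1/2-KO libraries. The LATS1/2-KO libraries carry the numbers 5, 6 and 7 in the table. Scaled counts are counts divided by a library size that places the middle of the gap between the listed higher and lower genes at no change. This gap was 2.00 wide on the log2 scale over 197 genes with parental replicates 2 and 3, and 0.53 wide with all 3 parental libraries, so the scale between groups was set without parental replicate 1. Because the list was chosen on these libraries, the presence of a gene in it is not independent evidence of its direction. Of the epithelial markers checked for this cell line, KRT19 and KRT17 are in the table (2 of 9), with at least 5505 and 116774 counts in every library. Their log2 fold changes were −1.09 for KRT19 and −1.06 for KRT17 (edgeR adjusted p = 0.0991 and 0.128), and without parental replicate 1 both were called lower (−1.19 and −1.16, edgeR adjusted p = 0.0362 and 0.0338). None of the 5 stromal, 3 immune or 2 endothelial markers is listed, which does not show that they are absent from the cells, since the table holds called genes only.

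All 4 metallothionein genes had lower scaled counts in each LATS1/2-KO library than in each parental library. The parental mean was 1.87 times the LATS1/2-KO mean for MT2A, 1.97 times for MT1X and 3.59 times for MT1F, and MT1A had no count in any LATS1/2-KO library. The same full separation held for 183 of the 414 listed genes, 44.2% of them. In bulk RNA, fewer cells with a transcript and less of it per cell cannot be told apart.

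MT2A, the most abundant of the 4 transcripts, had 296344, 302509 and 275279 counts in parental replicates 1, 2 and 3 and, in LATS1/2-KO libraries 5, 6 and 7, 196658, 48757 and 117291. After scaling these were 201729, 243705 and 276727 in the parental libraries and 147347, 98122 and 141101 in the LATS1/2-KO libraries. Every LATS1/2-KO value lay below the lowest parental value, that of replicate 1. The means were 240720 ± 37588 (SD, n = 3) and 128857 ± 26800 (SD, n = 3), and by parental mean MT2A ranked at position 4 of the listed genes. The log2 fold change was −0.90 (SE 0.21), with an edgeR quasi-likelihood adjusted p of 0.579.

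MT1X, whose product binds the same metals, had 9830, 8317 and 8192 counts in the parental libraries and 5828, 1117 and 3615 in LATS1/2-KO libraries 5, 6 and 7. Its scaled counts were 6692, 6700.3 and 8235 in the parental libraries and 4367, 2248 and 4349 in the LATS1/2-KO libraries. Library 6 was the lowest, and the other LATS1/2-KO values were also below the parental range. The log2 fold change was −0.98 (SE 0.29, edgeR adjusted p = 1).

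MT1F had 153, 92 and 144 counts in the parental libraries and 46, 9 and 31 in LATS1/2-KO libraries 5, 6 and 7. Its scaled counts were 104, 74.1 and 145 in the parental libraries and 34.5, 18.1 and 37.3 in the LATS1/2-KO libraries. The groups did not overlap, although the 9 counts of library 6 have an exact Poisson interval of 4.12 to 17.1. The means were 108 ± 35.5 (SD, n = 3) and 30.0 ± 10.4 (SD, n = 3). The log2 fold change was −1.83 (SE 0.47, edgeR adjusted p = 0.776).

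MT1A had 238, 154 and 156 counts in the parental libraries and 0 in each of the 3 LATS1/2-KO libraries. The parental scaled mean was 148 ± 20.6 (SD, n = 3). With a floor of 3 counts over the whole LATS1/2-KO group, MT1A was at least 131-fold lower there on the scale used here, and at least 125-fold lower without parental replicate 1. The bound rests on the depth and the scale, and was 65.4-fold without LATS1/2-KO library 5, 81.7-fold with TMM, 91.7-fold with median-of-ratios and 64.1-fold with column totals of the listed genes. Its edgeR adjusted p was 0.0825 with all 6 libraries and 0.0403 without parental replicate 1. Of the 245 listed genes with at least 50 counts in each parental library, 2 had no count in any LATS1/2-KO library, MT1A and a gene listed without a symbol.

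**Figure D2:**
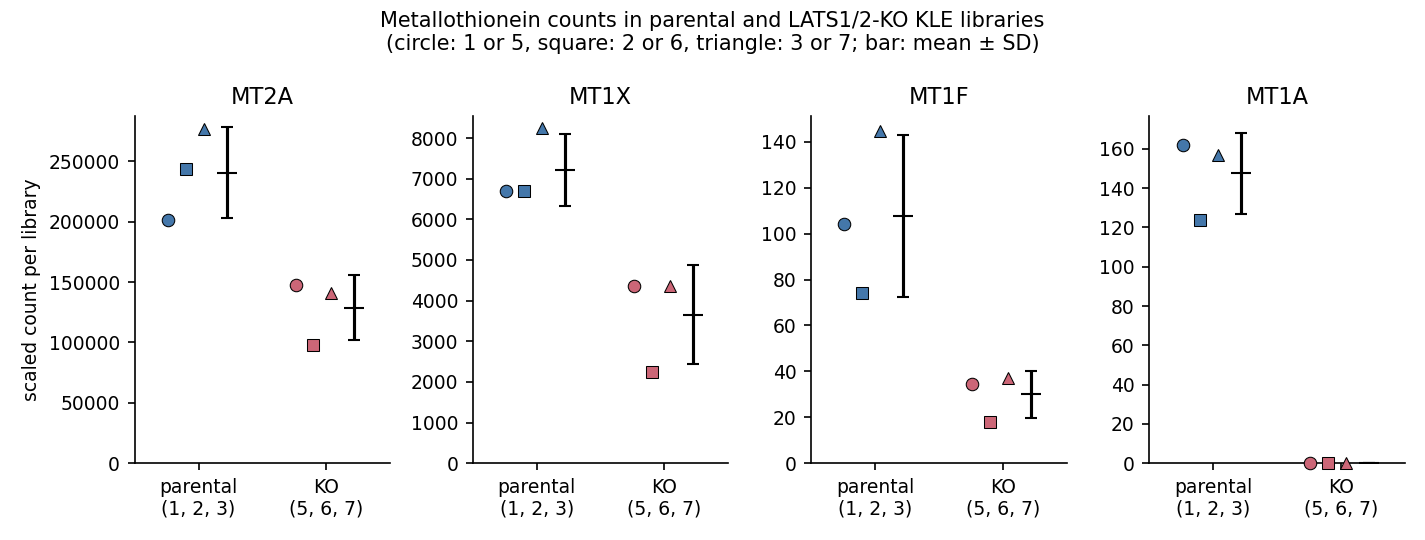
Scaled counts of the 4 metallothionein genes by library, with group means and SD (n = 3 each), on a separate linear axis for each gene. Every LATS1/2-KO library lies below every parental library for each gene, and MT1A is at 0 in all 3 LATS1/2-KO libraries.

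With all 6 libraries, none of the 4 genes met an adjusted p under 0.05 with an absolute log2 fold change above 1, where 3.38% of the listed genes were called lower and 18 genes were called higher. All 4 had an unadjusted p under 0.05 (0.00648 for MT2A, 0.0159 for MT1X, 0.00936 for MT1F and 0.000175 for MT1A, edgeR). Of the 414 listed genes, 310 had such a p, so this does not set the 4 genes apart. DESeq2 on the same scales gave an adjusted p of 5.06e-10 for MT1A, 0.0185 for MT2A, 0.121 for MT1F and 0.148 for MT1X, and called MT1A alone, where 30.7% of the listed genes were called lower. Without parental replicate 1, edgeR called MT1A and none of the other 3, where 13.8% were called lower. Since the list may have been chosen without that replicate, this call is no independent check. The log2 fold changes were then −1.01 for MT2A (adjusted p = 0.222), −1.03 for MT1X (adjusted p = 0.771) and −1.85 for MT1F (adjusted p = 0.571). Adjusted over the listed genes alone, which were chosen on these libraries, all 4 had an edgeR adjusted p under 0.05 (0.00171 for MT1A, 0.0161 for MT1F, 0.0120 for MT2A and 0.0245 for MT1X), where 43.5% of the listed genes were lower with such a p and 41.5% were called lower. An exact permutation test on the scaled counts of 3 against 3 libraries gave 0.1 for each gene, the smallest p it allows.

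The direction of MT2A and MT1X depended on the scale. With column totals of the listed genes as library sizes, the log2 fold change was 0.14 for MT2A and 0.058 for MT1X, and −0.79 for MT1F. TMM over the listed genes gave −0.23, −0.30 and −1.16 for MT2A, MT1X and MT1F. As a share of listed counts, MT2A took 8.58% ± 1.12 (SD, n = 3) in the parental and 9.48% ± 1.36 (SD, n = 3) in the LATS1/2-KO libraries, and these ranges overlapped. MT1F took 0.00379% ± 0.000979 and 0.00219% ± 0.000628 (SD, n = 3 each).

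MT2A and MT1X lay at the edge of the list. Of the 199 listed genes with at least 50 counts in all libraries, 108 were lower in LATS1/2-KO cells without parental replicate 1, with a median log2 ratio of −1.26. MT2A, at −1.01, had 1 lower gene nearer to 0, and MT1X, at −1.03, had 8.

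**Figure D3:**
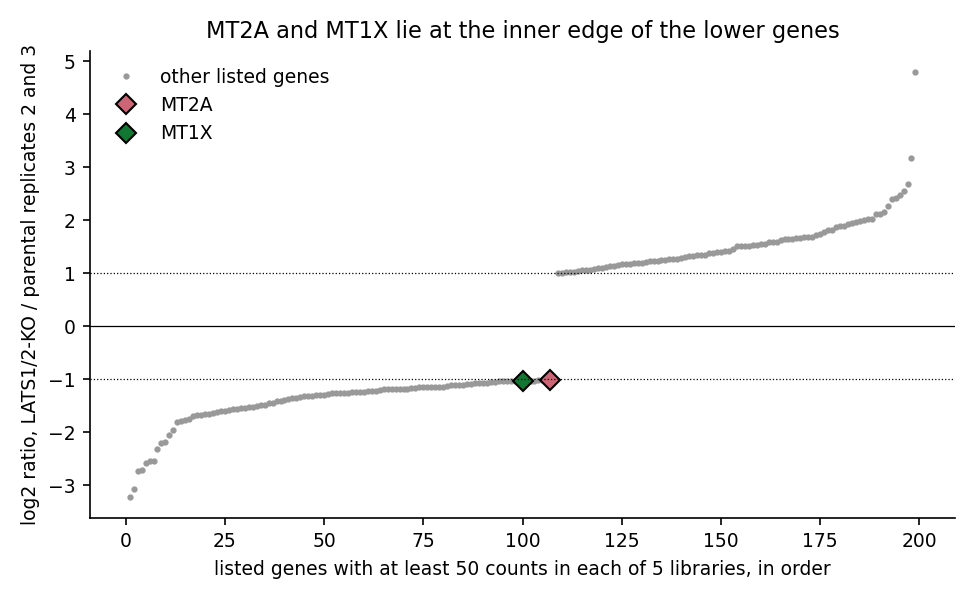
Log2 ratio of LATS1/2-KO to parental replicates 2 and 3 for the 199 well-counted listed genes, sorted from lowest to highest. MT2A (−1.01) and MT1X (−1.03) sit at the inner edge of the lower genes, next to the empty interval around 0.

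The ratio of one metallothionein to another within a library needs no library scale. MT1X amounted to 33.2, 27.5 and 29.8 counts per 1000 MT2A counts in the parental libraries, and the LATS1/2-KO libraries had 29.6 (library 5), 22.9 (library 6) and 30.8 (library 7). The ranges overlapped, and the log2 ratio differed by −0.12 (SE 0.16, exact permutation p = 0.6, two-sided). MT1F amounted to 0.516, 0.304 and 0.523 counts per 1000 MT2A counts in the parental libraries and to 0.234, 0.185 and 0.264 in the LATS1/2-KO libraries. These did not overlap, with a log2 difference of −0.92 (SE 0.29, exact permutation p = 0.1, the smallest possible). Relative to MT1X, MT1F was also lower in each LATS1/2-KO library, by a log2 difference of −0.79 (SE 0.20, exact permutation p = 0.1). MT1A was at least 75.8-fold lower relative to MT2A, from 0.627 per 1000 over the pooled parental libraries to a floor of 0.00827. Of the 108 lower well-counted genes without parental replicate 1, 1 lay nearer to 0 than MT2A and 8 nearer than MT1X. Nearly all of them were thus also lower relative to either gene. The direction of these ratios therefore does not set MT1F or MT1A apart from other lower genes. How many listed genes separated the groups by such a ratio was not computed. Adjusted over the 4 ratios by the Benjamini-Hochberg method, the exact permutation p was 0.133 for the 3 ratios that did not overlap and 0.6 for MT1X to MT2A.

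As a share of the summed counts of the 4 genes, MT2A made up 96.7% to 97.7% in the 6 libraries. MT1X made up 2.67% to 3.21% in the parental libraries, and 2.88%, 2.24% and 2.99% in LATS1/2-KO libraries 5, 6 and 7. The exact binomial 95% interval for library 6 (2.11% to 2.37%) lay apart from those of libraries 5 (2.81% to 2.95%) and 7 (2.89% to 3.09%). The intervals of parental replicates 1 (3.14% to 3.27%), 2 (2.62% to 2.73%) and 3 (2.83% to 2.95%) also lay apart, so libraries of both groups differed in MT1X by more than counting error. The MT1F share of parental replicate 2, 0.0296% (0.0238% to 0.0363%), had an interval that overlapped those of the LATS1/2-KO libraries. For MT1A, the exact binomial upper limits of the 0 counts were 0.00182%, 0.00739% and 0.00305% in libraries 5, 6 and 7 (a floor of 3 counts is 0.00148%, 0.00601% and 0.00248%), against 0.0495% to 0.0776% in the parental libraries. Intervals and floors cover counting error only.

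**Figure D4:**
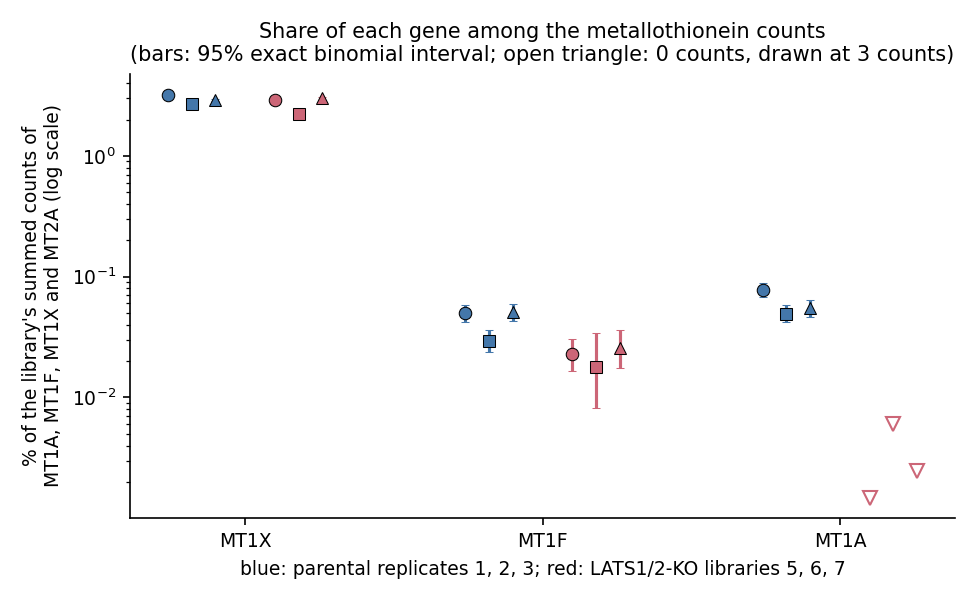
Share of the summed metallothionein counts taken by MT1X, MT1F and MT1A in each library, in percent, with exact binomial 95% intervals. MT1X overlaps between the groups, MT1F is lower in each LATS1/2-KO library, and MT1A is at 0 in all 3 of them.

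Levels of different genes were compared as parental scaled counts per kilobase of the longest transcript. MT2A reached 266578, MT1X 4174, MT1A 373 and MT1F 68.5 per kilobase. MT2A was thus 63.9 times MT1X, 715 times MT1A and 3894 times MT1F. Per kilobase of the longest protein-coding transcript, the factors were 22.9, 821 and 1963, with the genes in the same order.

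The libraries of a group also differed for these genes. Parental replicate 1 departed from the mean of replicates 2 and 3 by −0.37 on the log2 scale for MT2A, −0.16 for MT1X, −0.07 for MT1F and 0.21 for MT1A, where the median absolute departure of 249 listed genes was 0.39. For MT2A 130 of these genes departed more, and for the other members 177 to 223 did. LATS1/2-KO library 6 had 0.505 of the mean of libraries 5 and 7 for MT1F, 0.516 for MT1X and 0.680 for MT2A. Of 240 listed genes with at least 50 counts in every LATS1/2-KO library, 1, 2 and 14 were lower still. MT1F itself does not reach that minimum and has 9 counts in library 6, so its place among better-counted genes is uncertain. Without library 6, MT1X relative to MT2A differed by 0.0082 between the groups on the log2 scale.

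Other genes of metal handling were looked up from lists of known members. None of the 25 genes of zinc sensing and transport, which include MTF1, is in the table, nor is any of 13 genes of oxidant and heavy metal stress or of 8 glucocorticoid response genes, and these were not analysed here. Of 20 genes of copper and iron handling, STEAP1, of a family of metalloreductases, is listed. STEAP1 had 594, 15 and 12 counts in the parental libraries and 72, 19 and 54 in LATS1/2-KO libraries 5, 6 and 7. Its parental level rested on replicate 1, and its log2 fold change was −1.44 (SE 1.44, edgeR adjusted p = 1) with that library and 2.11 (SE 0.53, edgeR adjusted p = 0.422) without it.

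Of the 72 protein-coding genes that start within 5 Mb of the MT2A start, 6 are listed, and all 6 had negative log2 fold changes with and without parental replicate 1. Of these 6, 4 are the metallothioneins themselves, around which the distance was set. The whole table lists 414 genes, beside 19969 protein-coding genes in the annotation. On chromosome 16, without the 4 metallothioneins, 9 of 12 listed genes were lower without parental replicate 1, beside 186 of 410 in the whole table. The neighbours other than metallothioneins are MMP2 and ADGRG1. MMP2, a secreted gelatinase, had 1431, 760 and 583 counts in the parental libraries and 405, 166 and 208 in LATS1/2-KO libraries 5, 6 and 7, with a log2 fold change of −1.29 (SE 0.27, edgeR adjusted p = 0.395). ADGRG1, an adhesion G protein-coupled receptor, had 297, 320 and 240 parental counts and 42, 17 and 15 LATS1/2-KO counts. Its log2 fold change was −3.06 (SE 0.36, edgeR adjusted p = 0.0825), and −3.16 with an adjusted p of 0.0322 without parental replicate 1.

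Over 313 listed genes whose mean count reached 50, the profile closest to MT2A over the 6 libraries, by Euclidean distance of centred log2 scaled counts, was that of MLKL (0.303), the pseudokinase that executes necroptosis. A gene listed without a symbol (0.325), the mitochondrial carrier SLC25A45 (0.356), the calcium-binding protein S100A2 (0.361) and the matrix protein TGFBI (0.370) followed. MT1X was at rank 10 (0.410), MT1F at rank 96 (1.35) and MT1A at rank 293 (8.95). The order was not firm, since 1 of the 5 closest genes was shared when parental replicate 1 was left out and 1 when Pearson correlation was used.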

How the data were processed

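Total RNA of KLE cells was sequenced as paired-end reads from oligo-dT primed libraries. The authors' deposited table gives raw whole-number counts of 414 genes in each library, limited to genes they called changed. The submitters' processing notes name cutadapt, HISAT2, StringTie, DESeq2 and the build hg19. The counting tool, annotation and versions are not given in the sources used here. The fold changes and p-values of the authors' own comparison, and 6 normalized per-library columns, were not used.

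Parental columns match replicates 1, 2 and 3. The LATS1/2-KO columns, numbered 5, 6 and 7, match their group and no single sample. Libraries were scaled within a group by the median of the ratios to a geometric mean library, using genes that reached 50 counts in all libraries of that group. Between groups, 0 was set at the centre of the widest empty interval in the log2 ratios of LATS1/2-KO to parental replicates 2 and 3 (197 genes, the members left out). Column totals or TMM over such a list are pulled by the changed genes. Genes were tested with edgeR 4.0.16 in R 4.3.3 (quasi-likelihood, 414 genes, no filter, no covariates), with Benjamini-Hochberg adjustment for the 19969 protein-coding genes of GENCODE version 29, so that unlisted genes enter as larger p-values. The paper also reports a fold threshold for its changed genes, so an unlisted gene with a small fold change could have a smaller p. The adjusted p-values would then be upper bounds. A gene was called where its adjusted p was under 0.05 and its log2 fold change exceeded 1 in either direction. The standard error is the absolute log2 fold change divided by the square root of F. Ratios of 2 genes used 0.5 added to each count and an exact permutation test (scipy 1.17.1). The scale between groups and the edgeR and DESeq2 fits were tried on simulated data, and the permutation test was not. In the simulation of the scale every gene was given an absolute log2 fold change above 1, as the method assumes.

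Identifiers were joined to GENCODE version 29 on GRCh38 (410 of 414 found). The named genes are the members, genes of fixed lists that are in the table, listed genes within 5 Mb of MT2A, and the 5 genes closest to MT2A across libraries. The members, lists and tests were chosen with earlier results of these data known. The table holds no library totals, so depth is known only over listed genes. Counting intervals cover counting error only. Alternatives were each library left out, TMM, median-of-ratios and column totals as scales, DESeq2 1.42.0, a filter of at least 10 counts in at least 3 libraries, adjustment over the listed genes, window and transcript lengths, likeness measures and a wider motif. Adjustment over the listed genes without parental replicate 1, the longest protein-coding transcript for levels and the principal transcript for windows were added after seeing the data.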

Additional observations from a re-analysis of the deposited data

How the results depend on the processing

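No paired analysis was possible because the LATS1/2-KO columns carry numbers that match no parental replicate. With column totals the log2 fold change turned to 0.14 for MT2A and 0.058 for MT1X, and without LATS1/2-KO library 6 the MT1X to MT2A log2 ratio turned to 0.0082 (−0.21 to 0.0082 over all left-out libraries). Column totals over called genes are pulled by those genes. The log2 bound of MT1A, −7.03, ranged from −7.14 to −6.03 over left-out libraries. MT1A passed the threshold without parental replicate 1 (bound −6.96), with DESeq2 and with adjustment over the listed genes (bound −7.03 for both). These calls were made on fitted log2 fold changes, while the bounds come from the floor of 3 counts. The call without parental replicate 1 is no independent check, since the list may have been chosen without that library. The edgeR adjusted p of MT1A ranged from 0.0403 to 0.462 over left-out libraries. Adjustment over the listed genes alone, which were chosen on these libraries, also called MT1F (−1.83), where 41.5% of listed genes were called lower. Without parental replicate 1 this adjustment called all 4 genes (−1.01 for MT2A, −1.03 for MT1X, −1.85 for MT1F, bound −6.96 for MT1A). In that setting it called 402 of the 414 listed genes, 190 of them lower, so the calls do not set the 4 genes apart. Over left-out libraries the log2 fold change ranged from −1.01 to −0.74 for MT2A, from −1.13 to −0.73 for MT1X and from −2.04 to −1.56 for MT1F.

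Listed genes called higher and lower numbered 18 and 14, and 0 to 45 and 0 to 57 over left-out libraries. Without parental replicate 1 they numbered 45 and 57, and without any other single library edgeR called 0 genes, with 275 to 290 at an unadjusted p under 0.05. They numbered 34 and 4 with TMM, 17 and 1 with median-of-ratios, 42 and 2 with column totals, 93 and 127 with DESeq2, 119 and 172 with adjustment over the listed genes, and 212 and 190 with that adjustment and without parental replicate 1. In library 6, the shallowest over the listed genes, MT1F rests on 9 counts.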
